A study of Homo sapiens with 15 samples.

Results

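The DNA replication genes described here are 41 of the 43388 gene symbols counted in each library. They were picked by gene symbol from a list of proteins that prepare DNA for copying, copy it or supply its building blocks. The list has 5 genes for origin licensing, 12 for the helicase, 9 for polymerases and primase, 11 for the sliding clamp, its loader, replication protein A (RPA) and ligation, and 4 for nucleotide supply. All 41 symbols were found, and all 41 passed the filter on low counts in every fit.

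RNA-seq was performed on A549 cells, a human lung adenocarcinoma line with the genotype WT in its labels, to learn how excess oxygen and all-trans retinoic acid (ATRA) alter gene expression in lung epithelial cells. RNA was taken after 72 h in hyperoxia (95% oxygen) or normoxia (21% oxygen). In the vehicle and ATRA arms the exposure came after 24 h with ethanol or with 1e-05 mM ATRA. A549 descends from a tumour and lacks the cell cycle inhibitor CDKN2A, so it is a limited model of normal lung epithelium.

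Hyperoxia with vehicle and normoxia with vehicle had 2 libraries each, and hyperoxia with ATRA and normoxia with ATRA had 3 each. Another 2 libraries in hyperoxia and 2 in normoxia have labels that name the oxygen exposure alone and are called no vehicle here. Together these are 14 libraries in 6 groups, 7 libraries per oxygen exposure. A further library, whose title names hyperoxia but whose treatment label names adipogenic differentiation, was put in no group. The labels do not say that libraries of 1 group came from separate cultures, so p-values measure only the spread between these libraries, which may be technical.

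Counts on genes in normoxia numbered 5294382 and 4175467 without vehicle, 2843227 and 5450688 with vehicle, and 3947552, 3163517 and 3915114 with ATRA. In hyperoxia they numbered 4910396 and 3236964, 3817977 and 5516571, and 5605072, 2642377 and 4128671. The 41 members received between 5620 and 18477 of these counts per library. Levels are given as normalized CPM, counts scaled to library size with the TMM method. The level that 3 counts would give, a floor set by counting error alone, was 0.535 CPM in the deepest library and 1.14 CPM in the shallowest.

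Before S phase, the origin recognition complex, CDC6 and CDT1 load rings of MCM proteins onto replication origins, and CDC45 and GINS then turn each ring into a running helicase. Primase and polymerase alpha start each new strand, polymerases epsilon and delta extend it on the PCNA clamp, and FEN1 and LIG1 finish the fragments of the lagging strand. Many of these genes are transcribed under E2F factors as a cell commits to S phase, and high oxygen is known to slow the growth of cultured lung epithelial cells.

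The label of an epithelial line was checked against marker genes. All 5 epithelial markers (KRT8, KRT18, KRT19, EPCAM and CDH1) had counts. Their summed level was 5743 to 9562 CPM in normoxia and 1685 to 4203 CPM in hyperoxia, and KRT8 was the most abundant at 1133 to 5913 CPM. EPCAM was low, at 1.74 to 4.80 CPM in normoxia and 0 to 1.06 CPM in hyperoxia, near the floor. CDKN2A, which A549 cells have lost, was at 0 in every library. Of 4 leukocyte markers CD3E was at 0, and the sum was carried by CD68, at 17.4 to 32.8 CPM in normoxia and 60.4 to 103 CPM in hyperoxia. VWF was at 0 among 3 endothelial markers, whose sum was 0 to 6.26 CPM in normoxia and 0 in hyperoxia. DCN was at 0 among 4 fibroblast markers, of which COL1A1 was the most abundant. Their sum was 1.56 to 12.2 CPM in normoxia and 0 to 2.30 CPM in hyperoxia. The part of these marker levels in the results below was not tested.

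Hyperoxia no vehicle 1 stood apart from the other 13 libraries. It had counts on 12657 genes, the fewest of the 14, from 4910396 counts, while the highest number of genes with a count was 20108. On the first principal component of all genes (41.2% of the variance) it lay at -199, and the other libraries lay between -9.27 and 35.6. GMNN, CDC45 and RFC4 had a count of 0 in this library and in no other. Counts of members called in the arm without vehicle are therefore given with and without it. Hyperoxia ATRA 1, the deepest library at 5605072 counts, had counts on 16466 genes. Hyperoxia ATRA 2, the shallowest at 2642377 counts, had counts on 16465. On the first principal component hyperoxia ATRA 1 lay at -7.59, among the other libraries.

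Summed over the 41 members, the level was 3449.6 and 3277 CPM in normoxia and 2100.2 and 1778 CPM in hyperoxia with vehicle. With ATRA it was 3241, 3334 and 3224 CPM in normoxia and 1611, 2150.4 and 2074 CPM in hyperoxia, and without vehicle 3455 and 3331 CPM and 1666 and 2049 CPM. Each of the 7 hyperoxia libraries held less than each of the 7 normoxia libraries, with no overlap in any arm. In these bulk samples, fewer cells in S phase and less RNA of these genes per cell cannot be told apart. The members varied among themselves within this total, as the heat map by library shows.

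**Figure D1:**
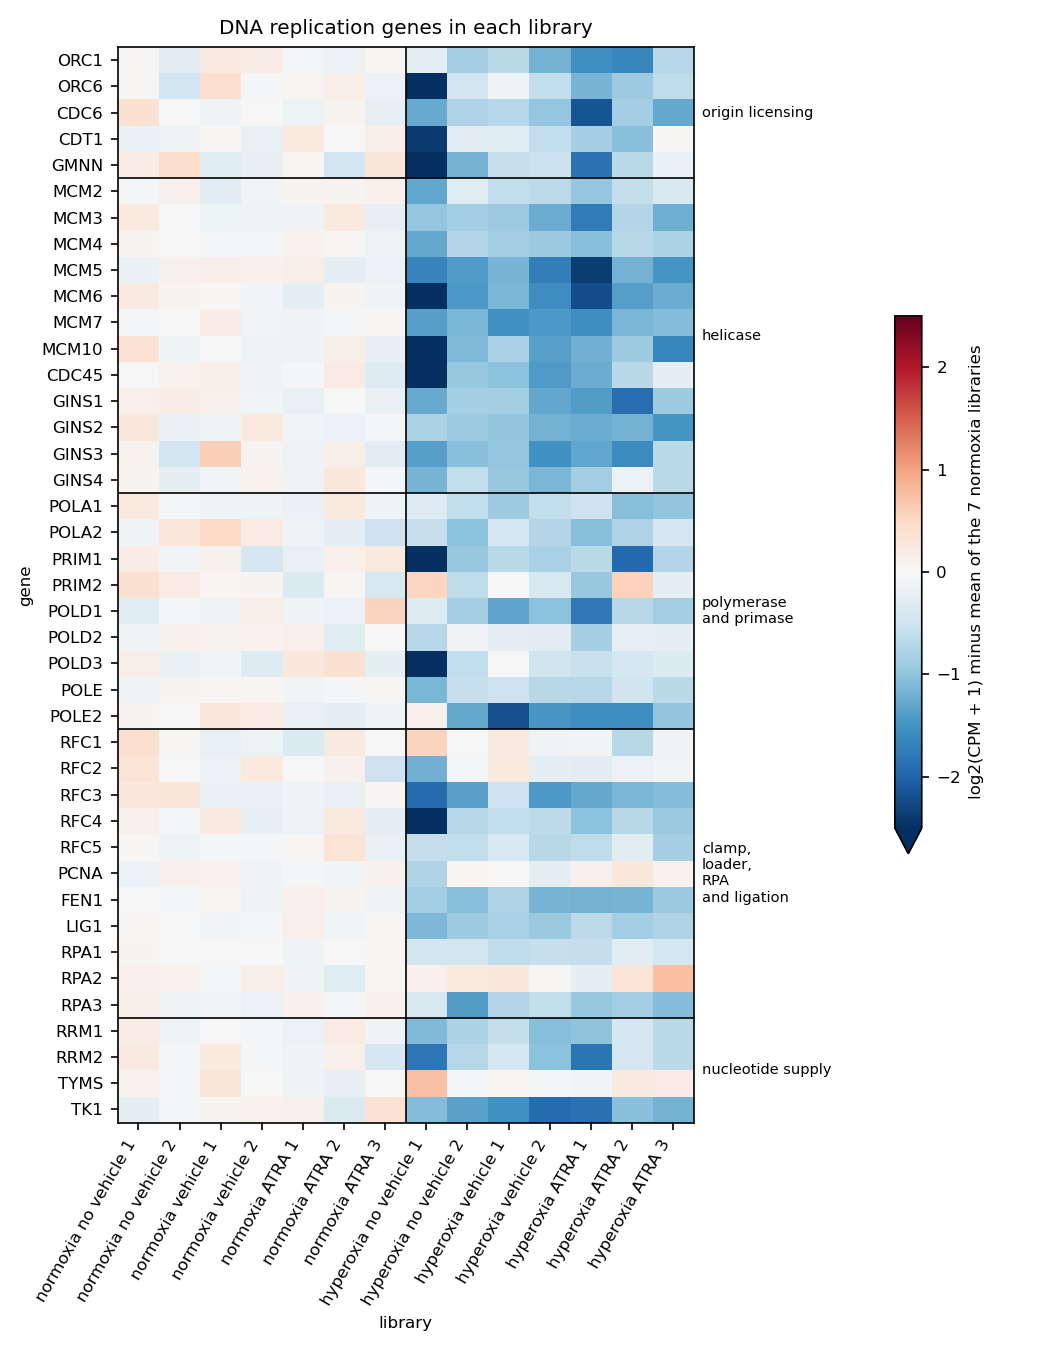
Level of the 41 DNA replication genes in each of the 14 libraries, as log2(CPM + 1) minus the mean of the 7 normoxia libraries, with genes in the order of their roles and blue below the normoxia mean. Hyperoxia columns are blue for most genes, while PCNA, RPA2, RFC1 and TYMS stay near white, and values below -2.5 share the darkest blue.

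Hyperoxia was compared with normoxia within each arm by edgeR's quasi-likelihood test, and a gene was called at a Benjamini-Hochberg adjusted p under 0.05 over all genes tested. Below, log2 fold changes are of hyperoxia over normoxia and are given with their standard error (SE). With vehicle, 22 of 41 members fell and 0 rose by edgeR, where 8.81% of the 14957 genes tested fell and 8.68% rose. DESeq2 also called 22 lower and 0 higher, and 28 members had an unadjusted p under 0.05 in edgeR. Here and below, no share of all genes is given beside counts by DESeq2 or by unadjusted p. The median log2 fold change of the members was -0.80 (range -2.33 to 0.22), and the median of all genes tested was 0.01. Without hyperoxia vehicle 2, which leaves 1 hyperoxia library in the arm, 9 of 41 members were called lower, beside 4.69% of 16257 genes.

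With ATRA, 29 of 41 members fell and 0 rose by edgeR, where 11.3% of all genes tested fell and 11.4% rose. DESeq2 called 28 lower and 0 higher, and 35 had an unadjusted p under 0.05 in edgeR. The median over the members was -0.84 on the log2 scale (range -1.58 to 0.46), and that of all genes 0.01. The vehicle and ATRA arms share no library, but they share the estimate of spread of a fit of 10 libraries. In this fit 20 members were called lower in both arms, and the share of all genes called lower in both was not counted.

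Without vehicle, in a fit of all 14 libraries, 20 of 41 members fell and 0 rose by edgeR, where 7.58% of 15339 genes fell. DESeq2 called 22 lower and 0 higher, and 29 had an unadjusted p under 0.05 in edgeR. The median over the members was -0.96 on the log2 scale, and in this arm the median of all genes was itself at -0.10. The count depended on the fit and on single libraries. With only the 4 libraries of this arm fitted, edgeR called 0 of 41 (17 at an unadjusted p under 0.05, smallest adjusted p 0.0693), so every call in this arm below rests on the spread pooled over 6 groups. In the fit of 14 libraries the count was 14 of 41 without hyperoxia no vehicle 1, beside 5.14% of 16503 genes, and the median over the members was then -0.84. Without hyperoxia no vehicle 2, so that the library standing apart was the only one left in its group, 31 were called lower and 1, TYMS, higher, beside 29.1% and 14.5% of 16884 genes, and the median of all genes was then -0.46. It was 11 without normoxia no vehicle 1, beside 3.27% of the genes tested, and 13 without normoxia no vehicle 2, beside 4.61%.

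Averaged over the 3 arms in the fit of 14 libraries, 31 of 41 members fell and 0 rose by edgeR, where 15.5% of all genes tested fell. The median over the members was -0.93 and over all genes -0.03, both on the log2 scale. DESeq2 also called 31 lower and 0 higher, and 35 members had an unadjusted p under 0.05 in edgeR. Without hyperoxia no vehicle 1 the count was 33, beside 17.0% of the genes tested, with a median of -0.86. The number of arms with a call was tallied for the members only, not for all genes tested. By arm, 15 members were called lower in all 3, 10 in 2, 6 in 1 and 10 in none. Without hyperoxia no vehicle 1 these numbers were 11, 12, 8 and 10. In the arm without vehicle CDC6 (-0.98), GINS2 (-1.03), POLE (-0.58), RPA1 (-0.48), MCM2 (-0.35), PRIM1 (-1.08) and RRM2 (-0.83) were then not called, and RPA3 (-1.54) was. The log2 fold change was below 0 in all 3 arms for 36 of 41 members, with or without that library.

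Levels gave a similar picture with no model. For 25 of 41 members every hyperoxia library was lower than every normoxia library, 7 against 7, which held for 7.31% of the 15339 genes tested. Without hyperoxia no vehicle 1, 6 against 7, it held for 27 members and 8.70% of genes. No member had every hyperoxia library above every normoxia library. By role, 7 against 7, the groups did not overlap for 10 of 12 helicase genes, 7 of 11 genes of the clamp, loader, RPA and ligation, 4 of 9 polymerase and primase genes, 3 of 4 nucleotide supply genes and 1 of 5 origin licensing genes. The 2 added without that library were ORC1 and POLE2.

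Promoters were searched for words bound by E2F factors, which regulate many of these genes, and for 2 other words of cell cycle promoters. RefSeq promoters of GRCh38.p14, from 250 bases before a gene's start to 50 after it, were found for 35 of 41 members. The words searched were TTTCCCGC, TTTGGCGC, TTTGCCGC and TTTCGCGC, the consensus bound by E2F factors, on both strands and with overlapping matches counted. At least 1 of them was in a promoter of 18 of 35 members (51.4%), against 3.99% of 27305 genes and 3.31% of 35116 promoters of the same length. In the 150 bases before the start alone it was in 12 of 35 members, against 2.24% of genes. In the longer window it was in 11 of the 19 members with a promoter that fell in hyperoxia with vehicle and in 7 of the 16 that were not called, and in the window of 150 bases in 6 of 19 and 6 of 16. The word CCAAT, on both strands, was in 22 of 35 members and in 39.7% of genes. TTTGAA or TTCGAA, words of the cell cycle homology region of many mitotic genes, was in 2 of 35 members and in 19.5% of genes. A match is a description, not a site or a cause.

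The bases before the start of 4 members are printed to set genes called lower with vehicle and with ATRA, MCM6 and GINS2 (the latter when not summed with its overlapping gene), beside genes called in no arm, CDT1 and PCNA, and these 4 were chosen after their values were seen. Capitals mark matches to the E2F words on either strand, and each run is read 5′ to 3′ in the direction of the gene. MCM6 lies at chr2:135876444-135876693 on the minus strand, GINS2 at chr16:85688955-85689204 on the minus strand, CDT1 at chr16:88803539-88803788 on the plus strand and PCNA at chr20:5126623-5126872 on the minus strand of GRCh38.p14.
MCM6: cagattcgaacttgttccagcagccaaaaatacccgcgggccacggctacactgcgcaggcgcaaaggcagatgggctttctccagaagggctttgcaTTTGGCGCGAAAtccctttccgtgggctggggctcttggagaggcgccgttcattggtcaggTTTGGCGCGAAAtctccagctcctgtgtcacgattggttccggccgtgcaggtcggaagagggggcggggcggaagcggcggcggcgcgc
GINS2: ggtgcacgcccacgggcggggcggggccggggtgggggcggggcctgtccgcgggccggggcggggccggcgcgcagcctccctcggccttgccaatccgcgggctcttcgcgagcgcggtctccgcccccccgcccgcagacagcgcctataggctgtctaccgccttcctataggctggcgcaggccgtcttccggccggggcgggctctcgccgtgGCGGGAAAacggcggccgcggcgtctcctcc
CDT1: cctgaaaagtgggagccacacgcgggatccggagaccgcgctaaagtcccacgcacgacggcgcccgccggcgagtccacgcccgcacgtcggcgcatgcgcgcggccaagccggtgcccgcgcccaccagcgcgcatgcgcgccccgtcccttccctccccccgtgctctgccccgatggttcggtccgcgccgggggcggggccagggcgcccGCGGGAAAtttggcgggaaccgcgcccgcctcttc
PCNA: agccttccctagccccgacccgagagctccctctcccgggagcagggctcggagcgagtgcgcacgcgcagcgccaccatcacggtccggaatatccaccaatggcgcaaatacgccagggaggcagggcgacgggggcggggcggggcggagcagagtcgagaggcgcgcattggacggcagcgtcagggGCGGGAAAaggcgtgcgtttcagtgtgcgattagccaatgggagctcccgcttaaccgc
MCM6 had 4 matches, which overlap in pairs to form 2 runs of capitals, and GINS2, CDT1 and PCNA had 1 match each.

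For each role below, counts with a library left out are printed without the share of all genes called in that fit. For some of these fits the share is given above with the arm, and for the others it is not given. Origin licensing genes together stood at 188 to 224 CPM in normoxia against 63.1 to 136 CPM in hyperoxia, with no overlap. By edgeR 2 of 5 fell with vehicle, 3 with ATRA and 1 without vehicle, and 0 of 5 did without vehicle once hyperoxia no vehicle 1 was left out, where CDC6 missed the threshold. With vehicle 0 of 5 were called without normoxia vehicle 1, hyperoxia vehicle 2 or normoxia vehicle 2, and 1 without normoxia ATRA 1 or hyperoxia vehicle 1. With ATRA all 5 were called without hyperoxia ATRA 3, and in the arm without vehicle 4 were without hyperoxia no vehicle 2 and 0 without normoxia no vehicle 1. CDC6, which brings the MCM rings to origins, had 78.2 and 83.4 CPM in normoxia against 50.9 and 42.4 CPM in hyperoxia with vehicle, and 76.2, 87.7 and 72.9 CPM against 18.0, 46.3 and 34.0 CPM with ATRA. In every arm its hyperoxia libraries were lower than its normoxia libraries, and hyperoxia ATRA 1 was the lowest of all. The log2 fold change of CDC6 was -0.80 (SE 0.26, adjusted p = 0.0394) with vehicle and -1.31 (SE 0.23, adjusted p = 0.000202) with ATRA, both by edgeR's quasi-likelihood test. Its call with vehicle was lost without normoxia ATRA 1 (log2 fold change -0.80), hyperoxia vehicle 1 (-0.96), normoxia vehicle 1 (-0.87), hyperoxia vehicle 2 (-0.70) or normoxia vehicle 2 (-0.77).

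ORC1, the largest subunit of the origin recognition complex, had 38.2 and 37.2 CPM in normoxia against 20.1 and 13.9 CPM in hyperoxia with vehicle, and 31.8, 29.6 and 33.6 CPM against 10.6, 9.95 and 19.6 CPM with ATRA. Hyperoxia was lower in both of these arms, and only hyperoxia no vehicle 1, at 27.6 CPM, reached into the normoxia range. On the log2 scale its change by edgeR was -1.16 (SE 0.31, adjusted p = 0.0117) with vehicle and -1.23 (SE 0.26, adjusted p = 0.00163) with ATRA. The call with vehicle was lost without normoxia vehicle 1 (-1.17), hyperoxia vehicle 2 (-0.93) or normoxia vehicle 2 (-1.20). PRPF38A overlaps ORC1 on the opposite strand and held 107% as many counts. With the counts of both genes summed, the log2 fold change was -0.48 with vehicle and -0.42 with ATRA, and neither was called.

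ORC6, the smallest subunit of the complex, had 35.1 and 25.0 CPM in normoxia against 24.1 and 16.6 CPM in hyperoxia with vehicle, and 26.9, 29.3 and 23.4 CPM against 11.0, 13.4 and 16.3 CPM with ATRA. With ATRA the groups did not overlap, while with vehicle the higher hyperoxia library came close to the lower normoxia library. By edgeR, ORC6 fell with ATRA, with a log2 fold change of -0.97 (SE 0.26, adjusted p = 0.00871). With vehicle ORC6 was not called, at -0.56 (95% interval -1.19 to 0.07). Leaving out each library in turn gave -0.87 to -0.33 for ORC6 with vehicle. CDT1, the partner of CDC6 in loading, and GMNN, which encodes the CDT1 inhibitor geminin, were called in none of the 3 arms. CDT1 ranged over 28.7 to 38.9 CPM in the 7 normoxia libraries and 5.39 to 33.5 CPM in the 7 hyperoxia libraries, which overlap. Its interval with vehicle was -1.05 to 0.23 on the log2 scale and that of GMNN -1.20 to 0.56, so a fall of 2-fold is within both. Averaged over the 3 arms GMNN was called lower (-1.28, and -0.91 without hyperoxia no vehicle 1), and ORC6 was called lower only without that library (-0.61). In the fit of all 14 libraries CDC6 (-0.80) and ORC1 (-1.15) with vehicle and ORC6 (-0.97) with ATRA were not called. ORC6 (-0.81) was also not called with ATRA when hyperoxia ATRA 1 and normoxia ATRA 1 were left out together.

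Helicase genes stood together at 1208 to 1347 CPM in normoxia against 461 to 664 CPM in hyperoxia, a wide gap between the exposures. By edgeR 11 of 12 fell with vehicle, 11 with ATRA and 9 without vehicle, and 7 did without vehicle once hyperoxia no vehicle 1 was left out. With vehicle, leaving out hyperoxia vehicle 2 reduced the count to 4 of 12. Averaged over the arms edgeR called all 12 lower and DESeq2 11. The overlapping gene GSE1 held 569% as many counts as GINS2 and was itself called higher in this average (0.63). The sum of GINS2 and GSE1 was called higher as well (0.36). The members are the 6 subunits of the MCM ring (MCM2 to MCM7), the 4 GINS subunits and CDC45, which activate it, and MCM10, which helps the helicase start.

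MCM7 had 311 and 261 CPM in normoxia against 95.4 and 100.5 CPM in hyperoxia with vehicle, and 257, 268 and 277 CPM against 92.3, 123 and 127 CPM with ATRA. Every hyperoxia library was far below every normoxia library. The change by edgeR was -1.54 (SE 0.16, adjusted p = 4.14e-07) with vehicle, -1.23 (SE 0.13, adjusted p = 4.33e-07) with ATRA and -1.24 (SE 0.16, adjusted p = 0.000101) without vehicle. Overlapping AP4M1 held 5.68% as many counts as MCM7. MCM5 had 185 and 178 CPM in normoxia against 73.2 and 49.1 CPM in hyperoxia with vehicle, and 184, 139.8 and 148 CPM against 31.0, 71.6 and 58.8 CPM with ATRA. Again no hyperoxia library reached a normoxia library, and hyperoxia ATRA 1 was the lowest. Its log2 fold change by edgeR was -1.58 (SE 0.25, adjusted p = 0.000117) with vehicle and -1.58 (SE 0.21, adjusted p = 1.15e-05) with ATRA.

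MCM4 had 216 and 214 CPM in normoxia against 120.3 and 115 CPM in hyperoxia with vehicle, and 233, 223 and 199.9 CPM against 105, 134 and 126 CPM with ATRA. The exposures did not overlap, with a smaller gap than for MCM7 and MCM5. By edgeR its log2 fold change was -0.87 (SE 0.15, adjusted p = 0.000191) with vehicle and -0.85 (SE 0.12, adjusted p = 2.14e-05) with ATRA. MCM2 was the member of the ring with the smallest difference. It had 91.8 and 105 CPM in normoxia against 71.6 and 69.4 CPM in hyperoxia with vehicle, and 115, 115 and 119 CPM against 56.1, 72.3 and 84.5 CPM with ATRA. Hyperoxia libraries were again lower in both arms, but by less than for the other subunits. MCM2 was not called with vehicle by edgeR, at -0.49 (SE 0.18, adjusted p = 0.0658), and fell with ATRA, at -0.72 (SE 0.15, adjusted p = 0.00103). The gene LOC107986126 overlaps MCM2 on the opposite strand and held 50.7% as many counts. MCM2 was called lower with vehicle when hyperoxia ATRA 1 (-0.49) or hyperoxia ATRA 3 (-0.50) was left out, when its counts were summed with those of the overlapping gene (-0.51), with only the groups compared (-0.50), and without hyperoxia ATRA 1 and normoxia ATRA 1 together (-0.49).

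MCM3, MCM6, MCM10, GINS1 and GINS2 were also called lower in all 3 arms, and without hyperoxia no vehicle 1 GINS2 (-1.03) was not called in the arm without vehicle. GINS2 shares its locus with GSE1, and the counts of both genes summed were called higher with ATRA (0.42). MCM6, whose promoter is printed above, had 125 and 115 CPM in normoxia against 54.1 and 40.4 CPM in hyperoxia with vehicle, and 103, 126 and 113 CPM against 25.4, 45.9 and 50.5 CPM with ATRA. The hyperoxia and normoxia libraries did not overlap, and hyperoxia no vehicle 1, at 17.8 CPM, was the lowest. The log2 fold change of MCM6 was -1.36 with vehicle, -1.51 with ATRA and -2.16 without vehicle, where it was -1.62 without hyperoxia no vehicle 1. GINS2, the other of these with a printed promoter, lay at 29.0 to 40.0 CPM in the 7 normoxia libraries and 11.1 to 18.6 CPM in the 7 hyperoxia libraries, with no overlap. GINS3 and GINS4 were called lower with vehicle and with ATRA but not without vehicle. CDC45 was called lower with vehicle (-1.32) and not with ATRA, where its 95% interval was -1.27 to -0.08.

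**Figure D2:**
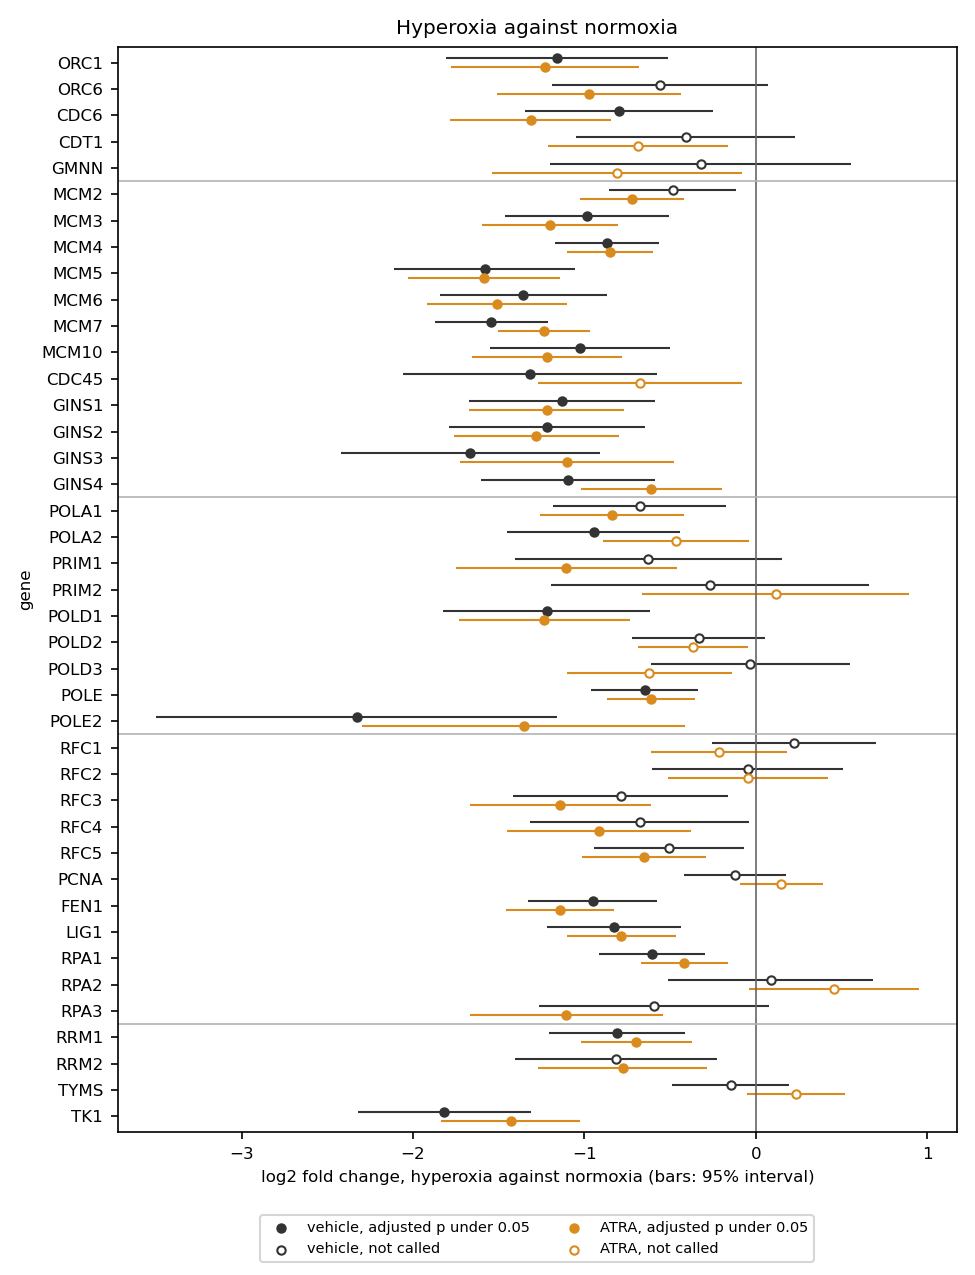
Log2 fold change of each of the 41 members in hyperoxia against normoxia, with vehicle (2 against 2 libraries) and with ATRA (3 against 3), with bars for the 95% interval and filled points for an adjusted p under 0.05. Helicase genes lie left of 0 in both arms, at -1.66 to -0.49 with vehicle, and POLE2 lies farthest left at -2.33 with the widest bar.

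Polymerase and primase genes stood together at 485 to 534 CPM in normoxia against 274 to 353 CPM in hyperoxia. By edgeR 4 of 9 fell with vehicle, 5 with ATRA and 3 without vehicle. With vehicle the count was 2 of 9 without hyperoxia vehicle 1 or hyperoxia vehicle 2. In the arm without vehicle it was 1 of 9 when any 1 of hyperoxia no vehicle 1, normoxia ATRA 1, the vehicle libraries of both exposures or the normoxia no vehicle libraries was left out, and 5 without hyperoxia no vehicle 2. POLE, the catalytic subunit of polymerase epsilon, which copies the leading strand, had 135 and 137 CPM in normoxia against 92.2 and 81.2 CPM in hyperoxia with vehicle, and 126, 129 and 135 CPM against 80.4, 93.4 and 81.9 CPM with ATRA. The exposures did not overlap, and hyperoxia no vehicle 1, at 59.3 CPM, was the lowest. Its log2 fold change by edgeR was -0.65 (SE 0.15, adjusted p = 0.00363) with vehicle and -0.61 (SE 0.12, adjusted p = 0.000948) with ATRA. The call with vehicle was lost without hyperoxia vehicle 2 (-0.59).

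POLE2, the second subunit of polymerase epsilon, had 13.2 and 12.6 CPM in normoxia against 1.59 and 3.35 CPM in hyperoxia with vehicle, and 9.39, 9.05 and 10.1 CPM against 3.06, 3.06 and 4.96 CPM with ATRA. Hyperoxia was lower in both arms, but without vehicle hyperoxia no vehicle 1, at 12.0 CPM, lay within the normoxia range. By edgeR its log2 fold change was -2.33 (SE 0.56, adjusted p = 0.0055) with vehicle and -1.35 (SE 0.45, adjusted p = 0.0349) with ATRA. The call with vehicle was lost without hyperoxia vehicle 1 (-1.96). The call with ATRA was lost without any 1 of hyperoxia ATRA 1 (-1.21), hyperoxia ATRA 2 (-1.29), normoxia ATRA 1 (-1.37), normoxia ATRA 2 (-1.39), normoxia ATRA 3 (-1.33), normoxia vehicle 1 (-1.38) or normoxia vehicle 2 (-1.38), and also in the fit of 14 libraries (-1.36), with no filter on low counts (-1.36), with only the groups compared (-1.37) and without hyperoxia ATRA 1 and normoxia ATRA 1 together (-1.22).

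POLD1, the catalytic subunit of polymerase delta, had 64.6 and 75.4 CPM in normoxia against 26.8 and 33.2 CPM in hyperoxia with vehicle, and 63.4, 61.5 and 100.5 CPM against 19.1, 42.1 and 37.1 CPM with ATRA. The exposures did not overlap in these arms, and normoxia ATRA 3 was the highest library. Without vehicle, hyperoxia no vehicle 1 at 54.5 CPM was next to normoxia no vehicle 1 at 55.2 CPM, and POLD1 was not called there (-0.38, and -0.67 without hyperoxia no vehicle 1). For POLD1 the log2 fold change by edgeR was -1.22 (SE 0.29, adjusted p = 0.00493) with vehicle and -1.23 (SE 0.24, adjusted p = 0.000702) with ATRA. The call with vehicle was lost without hyperoxia vehicle 1 (-1.11) or normoxia vehicle 2 (-1.12). The accessory subunits POLD2 and POLD3 were called in none of the 3 arms, with 95% intervals with vehicle of -0.72 to 0.05 and -0.61 to 0.55. Averaged over the 3 arms POLD2 was called lower (-0.37) but not without hyperoxia no vehicle 1 (-0.27), and POLD3 was called lower only without that library (-0.44). Among the genes of polymerase alpha and primase, which lay down primers, POLA2 fell with vehicle and without it, POLA1 with ATRA, and PRIM1 with ATRA and without vehicle. Without hyperoxia no vehicle 1, PRIM1 (-1.08) was not called in the arm without vehicle. PRIM2 was called in no arm, with a 95% interval of -1.20 to 0.66 with vehicle. RAB23 overlaps PRIM2 on the opposite strand and held 159.8% as many counts.

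Genes of the clamp, its loader, RPA and ligation stood together at 737 to 794 CPM in normoxia against 496 to 619.9 CPM in hyperoxia, the smallest relative gap of the 5 roles. By edgeR 3 of 11 fell with vehicle, 7 with ATRA and 4 without vehicle, and 4 did without vehicle when hyperoxia no vehicle 1 was left out and 7 when hyperoxia no vehicle 2 was. FEN1, a nuclease that trims flaps on the lagging strand, had 101 and 92.0 CPM in normoxia against 56.7 and 43.3 CPM in hyperoxia with vehicle, and 108, 103 and 91.9 CPM against 42.4, 43.2 and 51.2 CPM with ATRA. Every hyperoxia library was lower, at about the same level in each arm. On the log2 scale FEN1 was at -0.95 (SE 0.18, adjusted p = 0.000679) with vehicle, -1.14 (SE 0.15, adjusted p = 9.19e-06) with ATRA and -0.93 (SE 0.18, adjusted p = 0.0029) without vehicle by edgeR.

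LIG1, the ligase that seals lagging strand fragments, had 65.0 and 66.3 CPM in normoxia against 38.7 and 35.5 CPM in hyperoxia with vehicle, and 75.4, 64.9 and 69.5 CPM against 43.4, 37.5 and 40.4 CPM with ATRA. No libraries of different exposures overlapped. By edgeR its log2 fold change was -0.83 (SE 0.19, adjusted p = 0.00323) with vehicle and -0.78 (SE 0.15, adjusted p = 0.000712) with ATRA. RPA1, the large subunit of the single-strand binding protein RPA, had 147 and 148 CPM in normoxia against 95.4 and 98.9 CPM in hyperoxia with vehicle, and 137, 149 and 154 CPM against 98.1, 124 and 109 CPM with ATRA. The gap between exposures was narrower, with no overlap. Its log2 fold change by edgeR was -0.61 (SE 0.15, adjusted p = 0.00613) with vehicle and -0.42 (SE 0.12, adjusted p = 0.0161) with ATRA. The calls with vehicle were lost without hyperoxia vehicle 2 for LIG1 (-0.79) and without hyperoxia vehicle 1 for RPA1 (-0.61), and the call of RPA1 with ATRA without hyperoxia ATRA 1 (-0.34) or without it and normoxia ATRA 1 together (-0.39). LOC105371755 overlaps RPA1 and held 18.1% as many counts.

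PCNA, the sliding clamp itself, did not follow these genes. It had 192 and 168 CPM in normoxia against 180.2 and 150.2 CPM in hyperoxia with vehicle, and 176, 171 and 193 CPM against 194, 215 and 191 CPM with ATRA. The exposures overlapped with vehicle. With ATRA, hyperoxia ATRA 1 and hyperoxia ATRA 2 were above all 3 normoxia libraries and hyperoxia ATRA 3 was within their range. Without vehicle it had 162 and 197 CPM against 106 and 187 CPM, with hyperoxia no vehicle 1 the lowest of the 14. PCNA was called in none of the 3 arms by edgeR, with 95% intervals of -0.42 to 0.18 with vehicle, -0.09 to 0.39 with ATRA and -0.74 to 0.14 without vehicle. In the arm without vehicle its log2 fold change was above 0, at 0.05, when hyperoxia no vehicle 1 was left out. A fall as large as that of MCM7 or FEN1 in the same arm is outside each of the intervals with vehicle and with ATRA.

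PCNA-AS1 overlaps PCNA on the opposite strand and held 94.3% as many counts, between 0.704 and 1.13 times those of PCNA in each library. By edgeR its log2 fold change was -0.04 with vehicle (SE 0.15, adjusted p = 0.900) and 0.53 with ATRA (SE 0.13, adjusted p = 0.00383), where it was called higher. With the counts of PCNA and PCNA-AS1 summed as 1 gene, the log2 fold change with ATRA was 0.34 and was called higher by edgeR (adjusted p = 0.0339, against a range of 0.0339 to 0.762 over the alternatives tried for PCNA). Whether reads of the pair were counted for the right gene was not tested, and the strand setting is not given in the sources used here. The entry __ambiguous, for reads that fit more than 1 gene, held 0.401% to 0.527% of the counts of a library.

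RFC1 to RFC5 encode the loader that places PCNA on DNA. RFC3 fell with ATRA and without vehicle, RFC4 and RFC5 with ATRA, and RFC1 and RFC2 in no arm, with 95% intervals with vehicle of -0.26 to 0.70 and -0.60 to 0.51. RFC4 was called lower in the mean of the 3 arms only without hyperoxia no vehicle 1 (-0.80). WSB2 overlaps RFC5 on the opposite strand and held 157% as many counts, and summed with it RFC5 was not called with ATRA (-0.16). RPA2 and RPA3 are the smaller subunits of RPA. RPA3 fell with ATRA (-1.11), and UMAD1, which overlaps it, held 119% as many counts. Summed with UMAD1 it was not called with ATRA (-0.54). In the arm without vehicle, with all libraries, this sum was above 0 and not called (0.32). RPA2 ranged over 21.8 to 30.3 CPM in the 7 normoxia libraries and 23.3 to 46.3 CPM in the 7 hyperoxia libraries, which overlap, and was called in no arm, with an interval of -0.51 to 0.68 with vehicle.

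**Figure D3:**
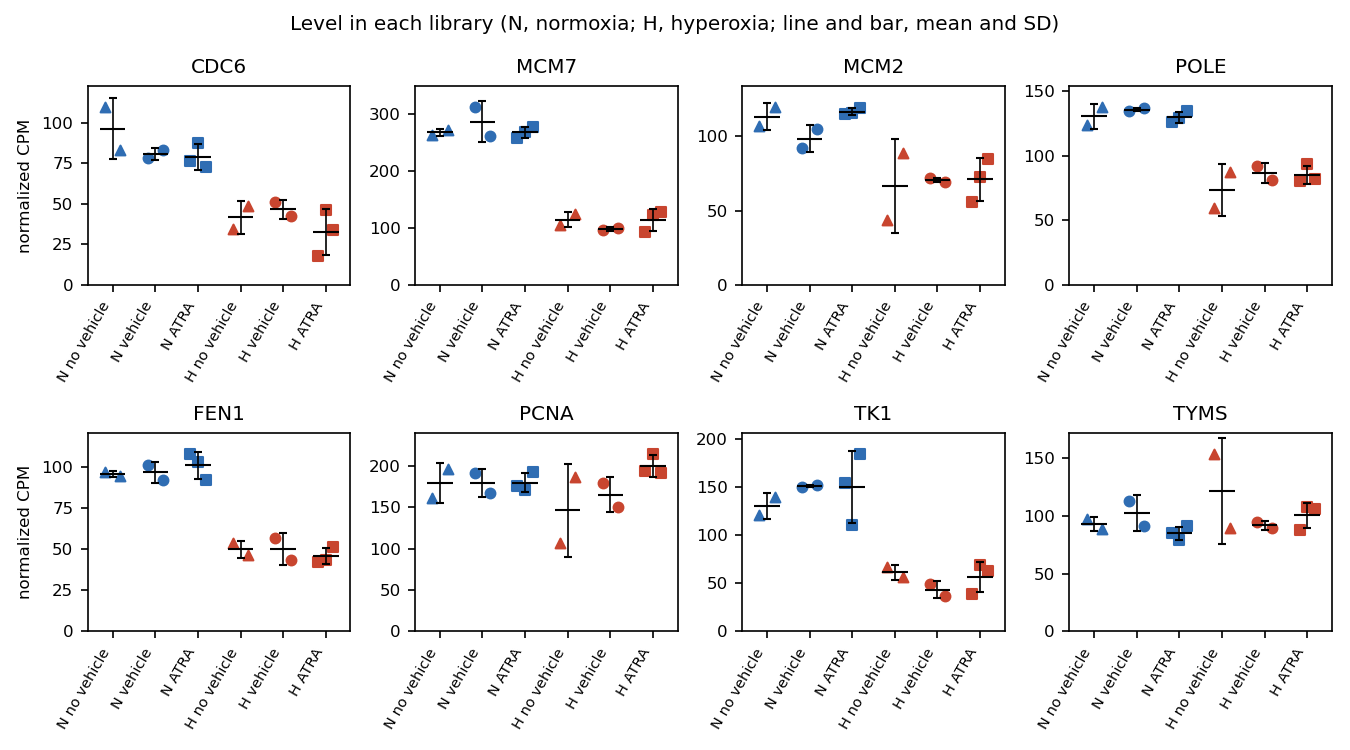
Normalized CPM of 8 members in each library by group, with lines for the mean and bars for the SD (n = 2 or 3 libraries per group). CDC6, MCM7, MCM2, POLE, FEN1 and TK1 are lower in every hyperoxia library, while the exposures overlap for PCNA (106 to 215 CPM in hyperoxia, 162 to 197 CPM in normoxia) and TYMS.

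Nucleotide supply genes stood together at 536 to 618 CPM in normoxia against 249 to 416 CPM in hyperoxia. By edgeR 2 of 4 fell with vehicle, 3 with ATRA and 3 without vehicle, and 2 did without vehicle once hyperoxia no vehicle 1 was left out. The count was 1 of 4 with vehicle without hyperoxia vehicle 2, and 1 of 4 in the arm without vehicle without normoxia no vehicle 1 or normoxia no vehicle 2. TK1, thymidine kinase of the salvage route, had 150.1 and 152 CPM in normoxia against 49.6 and 36.9 CPM in hyperoxia with vehicle, and 154, 111 and 184 CPM against 38.6, 68.5 and 62.6 CPM with ATRA. The hyperoxia libraries were all far below the normoxia libraries, and with ATRA the normoxia libraries were widely spread. Its log2 fold change by edgeR was -1.82 (SE 0.24, adjusted p = 1.27e-05) with vehicle, -1.43 (SE 0.20, adjusted p = 1.48e-05) with ATRA and -1.08 (SE 0.26, adjusted p = 0.0112) without vehicle. With vehicle it was the largest fall of the members after POLE2.

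RRM1, the large subunit of ribonucleotide reductase, had 149 and 146 CPM in normoxia against 98.9 and 70.6 CPM in hyperoxia with vehicle, and 134, 172 and 141 CPM against 73.9, 111 and 92.8 CPM with ATRA. Hyperoxia was lower with no overlap. By edgeR its log2 fold change was -0.81 (SE 0.19, adjusted p = 0.00446) with vehicle, a call lost without hyperoxia vehicle 2 (-0.61), and -0.70 (SE 0.16, adjusted p = 0.00239) with ATRA. RRM2, the small subunit, had 206 and 171 CPM in normoxia against 129 and 85.4 CPM in hyperoxia with vehicle, and 163, 191 and 130.1 CPM against 48.9, 129.7 and 109 CPM with ATRA. Its groups did not overlap, but with ATRA the highest hyperoxia library was next to the lowest normoxia library. RRM2 narrowly missed the threshold with vehicle by edgeR, at -0.82 (SE 0.28, adjusted p = 0.0522), and fell with ATRA, at -0.78 (SE 0.24, adjusted p = 0.0209).

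These calls of RRM2 rested on single libraries. It was called lower with vehicle without hyperoxia ATRA 1 (-0.82), hyperoxia ATRA 2 (-0.82), hyperoxia vehicle 1 (-1.16) or normoxia ATRA 3 (-0.82). RLE scaling (-0.83), no filter on low counts (-0.82), library set as a block (-0.84) and only the groups compared (-0.83) also gave a call. Its call with ATRA was lost without hyperoxia ATRA 1 (-0.44), normoxia ATRA 1 (-0.77) or normoxia ATRA 2 (-0.64), and neither DESeq2 (-0.77) nor the fit of 14 libraries (-0.77) called it there. Without hyperoxia ATRA 1 and normoxia ATRA 1 together it was called with vehicle (-0.82) and not with ATRA (-0.43).

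TYMS, thymidylate synthase of the de novo route to thymidine nucleotides, was called in no arm. It ranged over 79.3 to 113 CPM in the 7 normoxia libraries and 87.8 to 154 CPM in the 7 hyperoxia libraries. The exposures overlapped, and hyperoxia no vehicle 1 was the highest library. Its 95% intervals by edgeR were -0.49 to 0.20 with vehicle and -0.05 to 0.52 with ATRA, on either side of 0. ENOSF1 and TYMSOS overlap TYMS on the opposite strand and held 144% and 14.2% as many counts. TYMS was called higher without vehicle when hyperoxia no vehicle 2 was left out, as given above for the arm.

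Levels of different genes were compared per kilobase of exon, as the median over the 7 libraries of an exposure. The length was the union of all annotated exons of a gene, from 1403 bases for PCNA to 15547 for POLA1. Which of these exons the cells use was not tested, so the order of genes below also depends on the annotation. PCNA had the highest level of the 41 in both, 125 CPM per kb in normoxia and 133 in hyperoxia. TK1 was next in normoxia at 81.4 CPM per kb, followed by MCM7 at 54.1 and FEN1 at 44.1. The libraries of TK1 and MCM7 overlapped in level (60.1 to 99.9 and 51.8 to 62.8 CPM per kb), so their order is not beyond the spread. In hyperoxia TYMS, the fifth in normoxia at 37.5 CPM per kb, was second at 39.1, and TK1 followed at 30.4, with ranges that overlap. MCM6 went from rank 8 to rank 16 and RPA2 from rank 18 to rank 9. The lowest medians were those of PRIM2 in normoxia, 2.40 CPM per kb, and of POLE2 in hyperoxia, 1.14, and their ranges overlap those of POLA1 in normoxia and GINS3 in hyperoxia. Without hyperoxia no vehicle 1 the ranks of PCNA, TYMS, TK1, MCM6, RPA2 and POLE2 in hyperoxia were the same.

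Overlapping genes limit what the counts say of 9 members, whose overlapping RefSeq gene held at least 10% as many counts. Those of ORC1, MCM2, PRIM2, RFC5, PCNA, RPA1, RPA3 and TYMS are named above. GINS2 overlaps GSE1, on the opposite strand, which held 569% as many counts. By edgeR GSE1 was called higher with vehicle, at 0.45 (SE 0.15, adjusted p = 0.0455), where GINS2 fell, at -1.22. With each of these members summed with its overlapping gene, 21 of 41 members were called lower with vehicle, against 22 without summing. With ATRA 25 were then called lower and 2, the sums of GINS2 with GSE1 and of PCNA with PCNA-AS1, higher. The share of all genes called with these counts summed is not given.

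ATRA was compared with vehicle at each oxygen exposure, to see whether it alters replication genes in either. These comparisons use the same libraries as the oxygen comparisons above. In hyperoxia 0 of 41 members were called by edgeR, where 2.21% of 14957 genes were, 3 had an unadjusted p under 0.05 and DESeq2 called 0. In normoxia 0 of 41 were called by edgeR, where 1.25% of genes were, 1 had an unadjusted p under 0.05 and DESeq2 called 0. The log2 fold changes in hyperoxia ran from -0.58 to 0.59 (median -0.12) and in normoxia from -0.63 to 0.37 (median -0.01), with medians of 0.00 over all genes tested in both. These counts of 0 held in each of the alternatives tried, each library left out in turn included.

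A p that misses the threshold does not show that ATRA left these genes alone, and the intervals give the size that can be bounded. For MCM7, ATRA against vehicle had a 95% interval of -0.38 to 0.19 in normoxia and -0.09 to 0.52 in hyperoxia on the log2 scale, and for FEN1 -0.27 to 0.40 and -0.48 to 0.23. For POLE2, with few counts, it was as wide as -0.59 to 1.67 in hyperoxia. The 3 members with an unadjusted p under 0.05 in hyperoxia were GINS4 (0.51), CDC6 (-0.55) and PCNA (0.28), and the 1 in normoxia was POLA2 (-0.63). The smallest adjusted p by edgeR was 0.317 in hyperoxia and 0.268 in normoxia.

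**Figure D4:**
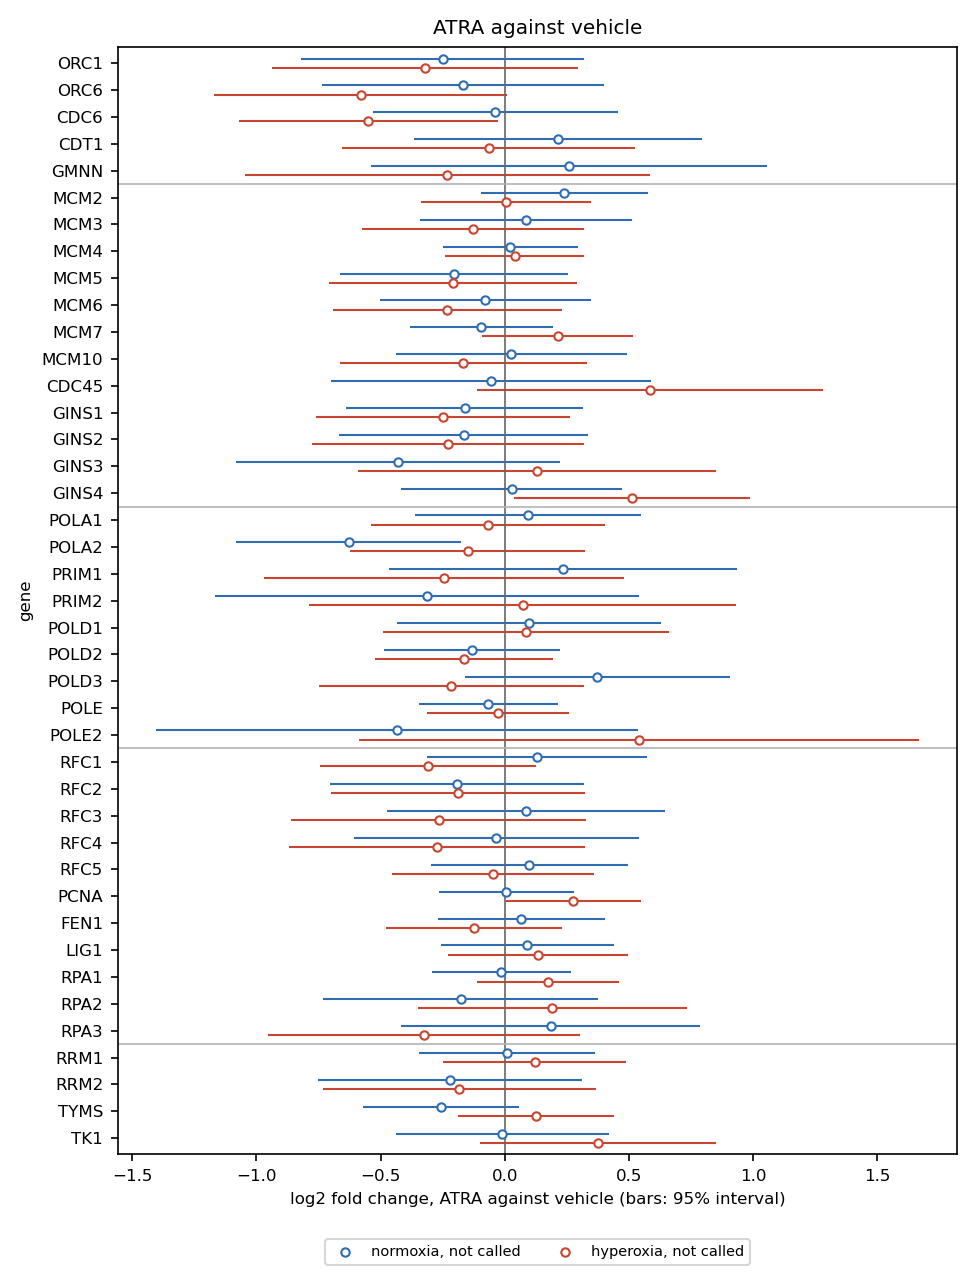
Log2 fold change of each of the 41 members with ATRA against vehicle, in normoxia and in hyperoxia, with bars for the 95% interval and open points because none had an adjusted p under 0.05. Points lie on either side of 0, between -0.63 and 0.59.

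Whether the effect of ATRA differed between the oxygen exposures was tested by an interaction term, which is also the test of whether the effect of hyperoxia differed between the ATRA and vehicle arms. By edgeR 0 of 41 members were called, where 0.140% of genes were, 0 had an unadjusted p under 0.05 and DESeq2 called 0. The smallest adjusted p by edgeR was 0.780, for TYMS, with an interaction of 0.38 and a 95% interval of -0.06 to 0.83 on the log2 scale. The higher number of members called with ATRA (29) than with vehicle (22) was therefore not shown to be a difference between the arms.

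Vehicle was compared with no vehicle in the fit of 14 libraries, to see whether ethanol alone moved the members. By edgeR 0 of 41 were called in hyperoxia, where 0.00652% of 15339 genes were, 2 had an unadjusted p under 0.05 and DESeq2 called 0. In normoxia 0 of 41 were called by edgeR, where 0% of genes were, 0 had an unadjusted p under 0.05 and DESeq2 called 0. The interaction of vehicle and oxygen exposure also gave 0 of 41 by edgeR, where 0.00652% of genes were called, with 1 at an unadjusted p under 0.05 and 0 by DESeq2. These counts rested on hyperoxia no vehicle 2. Without it, with the library standing apart alone in its group, 17 members were called in hyperoxia (15 higher and 2 lower with vehicle), beside 33.3% of genes, and 14 in the interaction, beside 22.3%.

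Related genes are given by counts from lists. Over all genes tested, 8.81% fell and 8.68% rose with vehicle by edgeR, and 11.3% fell and 11.4% rose with ATRA. Of 27 other replisome and checkpoint genes, 9 fell and 0 rose with vehicle by edgeR (median -0.55 on the log2 scale), and 14 fell and 1 rose with ATRA. Those with the smallest p with vehicle were TIMELESS (-1.14), of the fork protection complex, TICRR (-1.65), which helps load CDC45, and TOPBP1 (-1.24), which acts with it. POLD4, the small subunit of polymerase delta, was the 1 that rose with ATRA (0.53). Of 8 genes of chromatin assembly at the fork, 7 fell and 0 rose with vehicle (median -0.88), led by DNMT1 (-0.93), CHAF1A (-0.95) and CHAF1B (-1.14). DESeq2 called 9 of 27 and 7 of 8 lower and 0 higher in these 2 lists with vehicle. In this comparison the medians of the members and of all genes were -0.80 and 0.01.

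Of 10 other genes of nucleotide metabolism, 2 fell and 1 rose with vehicle by edgeR (median -0.32), where 8.81% of all genes tested fell and 8.68% rose. SHMT1 (-1.19), which interconverts serine and glycine, and DTYMK (-0.75), which phosphorylates the product of TYMS and TK1, fell. RRM2B, a second small subunit of ribonucleotide reductase, rose, with a log2 fold change of 1.24 by edgeR (adjusted p = 0.000153), where RRM1 fell. RRM2B is also in the list of p53 targets, of which 14 of 14 rose with vehicle and 14 with ATRA (median 1.59 and 2.04), among them CDKN1A (3.34), MDM2 (2.81) and BTG2 (3.25) with vehicle.

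Of 15 E2F, pocket protein and cyclin E genes, 3 fell and 0 rose with vehicle by edgeR (median -0.12): E2F1 (-1.35), E2F2 (-1.34) and TFDP1 (-0.66), the partner of E2F proteins. Of 22 mitosis genes, 21 fell and 0 rose with vehicle (median -2.11), a larger median fall than that of the members, with CCNB1 (-3.54), CDC20 (-2.34) and PLK1 (-3.68) at the smallest p. With ATRA the same 21 of 22 count held for mitosis (median -2.31). In the E2F list 2 of 15 (13.3%) fell with ATRA, near the 11.3% of all genes tested. ATRA against vehicle gave 0 calls by edgeR in either exposure for the lists of replisome, nucleotide, chromatin, E2F and mitosis genes, and DESeq2 called 0 of them. At an unadjusted p under 0.05 edgeR had 2 chromatin, 1 E2F and 2 mitosis genes in hyperoxia and 1 E2F and 1 mitosis gene in normoxia. Of the 5 epithelial markers, 4 fell in hyperoxia with vehicle, and 4 were higher with ATRA than with vehicle in hyperoxia by edgeR. Of the 14 p53 targets, ATRA against vehicle gave 1 higher in hyperoxia by edgeR (FDXR, 0.60) and 1 higher by DESeq2, and in normoxia 0 by edgeR (4 at an unadjusted p under 0.05) and 1 lower by DESeq2.

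**Figure D5:**
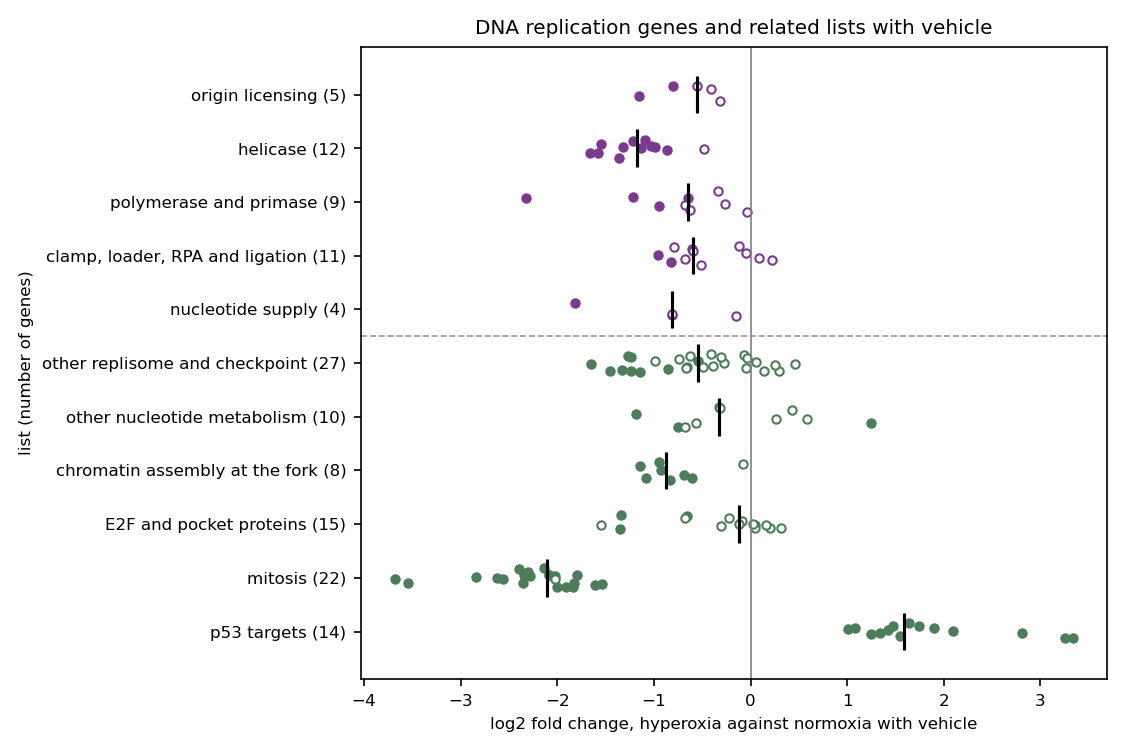
Log2 fold change in hyperoxia against normoxia with vehicle for each gene of the 5 roles of the members (purple) and of 6 related lists (green), with filled points for an adjusted p under 0.05 and a black line at each median. Medians run from -1.18 for the helicase to -0.56 for origin licensing among the roles, and stand at -2.11 for mitosis and 1.59 for p53 targets.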

How the data were processed

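The deposited values are raw counts per gene, which the authors made, per the labels, with HTSeq from HISAT2 alignments to hg38 of reads trimmed by Trimmomatic 0.38. The library kit is stranded, but the strand setting of the counting and the annotation release are not given in the sources used here. Entries that name no gene stayed out of library sizes and tests, and __no_feature held 48.6% to 55.3% of the counts of a library.

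The groups came from the labels. A library with conflicting labels was left out of every comparison. Counts were filtered with filterByExpr (minimum count 10, minimum total 15), scaled by TMM and fitted with edgeR 4.0.16 quasi-likelihood models in R 4.3.3, which also used limma 3.58.1. A fit of 10 libraries (4 groups, 14957 genes tested) gave the comparisons of the vehicle and ATRA arms, and a fit of all 14 libraries (6 groups, 15339 genes tested) those that use the libraries without vehicle and the mean of 3 arms. Both fits pool the spread over groups, which assumes that groups vary alike. DESeq2 1.42.0 was an alternative, and the other alternatives were RLE scaling, no filter on low counts, each library left out in turn, library set as a block, only the groups compared, the other fit, counts of overlapping genes summed, and 2 pairs of libraries left out together (hyperoxia ATRA 1 with normoxia ATRA 1 in the fit of 10, or with hyperoxia no vehicle 1 in the fit of 14). The pipeline was tested on simulated data. Pairs of libraries of 1 group were checked for being copies of each other, and their chi-square per degree of freedom, near 1 for counting error alone, lay between 3.98 and 31.5. Gene lengths came from exon unions of GENCODE 44, and gene positions and promoters from RefSeq GRCh38.p14. Tables and figures were made with Python 3.11.15, pandas 2.3.3, numpy 2.4.6, scipy 1.17.1 and matplotlib 3.10.9.

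Members and lists were chosen with earlier results of these data known. Full values are given for the 3 members of each role with the smallest p in hyperoxia against normoxia with vehicle, and for PCNA and MCM2, 17 members in all. Other members named with values were chosen after their values were seen. Of the lists of related genes, the 3 with the smallest p in the same comparison are named, and POLD4, DTYMK, FDXR, the overlapping genes and the promoters of MCM6, GINS2, CDT1 and PCNA were chosen after their values were seen. A gene of the list of nucleotide metabolism is not reported here and was taken out of that list.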

Additional observations from a re-analysis of the deposited data

How the results depend on the processing

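Leaving out each library in turn gave 9 to 26 members called with vehicle (22 with all libraries), the lowest without hyperoxia vehicle 2, and 25 to 32 with ATRA (29). Without vehicle it gave 11 to 32 (20), the highest without hyperoxia no vehicle 2, and for the mean of 3 arms 28 to 37 (31). Vehicle against no vehicle in hyperoxia gave 0 to 17 and the interaction of vehicle and oxygen 0 to 14, both highest without hyperoxia no vehicle 2, and edgeR called 0 with all libraries (2 and 1 at an unadjusted p under 0.05, 0 by DESeq2). Where this left 1 library in a group, it was assumed to vary like the other groups. The remaining alternatives gave 18 to 29 called members with vehicle, 23 to 31 with ATRA and 30 to 35 for the mean. The share of all genes called is not given beside the counts of this section, so a change in them is not a result about the members alone. With only the groups compared, the arm without vehicle had 0 called by edgeR (17 at an unadjusted p under 0.05, smallest adjusted p 0.0693), and the cause was not tested. The library set as a block, inferred from numbers in titles since no label states pairing, gave 23, 31, 14 and 30 in these 4 comparisons. Of 323 values of the 17 named members with vehicle, 291 kept their side of the threshold, 18 lost a call and 14 gained one, and with ATRA 299, 22 and 2. None of these calls turned the other way. Among the other members, GINS2 was called lower with ATRA and for the mean of 3 arms (-1.28 and -1.15), and its sum with GSE1 was called higher (0.42 and 0.36). That sum was above 0 without a call in the other arms (0.19 with vehicle, 0.47 without). GSE1 held 569% as many counts as GINS2 and was itself higher with ATRA (0.71) and for the mean (0.63). Chosen after seeing the data, leaving out hyperoxia ATRA 1 together with normoxia ATRA 1 gave 25 with vehicle and 23 with ATRA, and together with hyperoxia no vehicle 1 gave 19 without vehicle and 32 for the mean. At 2642377 to 5605072 counts per library, members with few counts such as POLE2 have wide intervals.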

Other observations

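The library with conflicting labels had 4415705 counts on genes. Its members summed to 1942 CPM without TMM scaling, where hyperoxia libraries held 1594 to 2128 CPM and normoxia libraries 3148 to 3491 CPM. All 41 members were within the range of the 7 hyperoxia libraries, and 38 within that of the 6 other than hyperoxia no vehicle 1, with MCM4, POLE and RFC2 below it. Of the 41, 8 were also within the normoxia range, and 32 were below every normoxia library. These values do not settle what the library was.

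These data are of 1 cell line at 1 time point, with 2 or 3 libraries per group. Levels of RNA are not levels of protein or rates of DNA synthesis, which are not analysed here. The share of cells in S phase is not known from these bulk libraries. Whether reads of members and of genes that overlap them were counted for the right gene was not tested. The arm without vehicle rests on a library that stood apart.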
